A study of Mus musculus with 36 samples.

Results

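The change in histone H3 lysine 9 acetylation (H3K9ac) after ethanol was examined in mouse dorsal hippocampus with the enzyme ACSS2 knocked down. Peaks of the ethanol-treated knockdown list were set against peaks of the untreated knockdown list on the assembled chromosomes, and a peak with no overlapping base in the other list was called gained if it stood in the EtOH list and lost if it stood in the untreated list. The 2 lists held 80604 of the 546933 peaks in the series, and 13290 were gained and 8204 lost. The study profiled H3K9ac and H3K27ac by chromatin immunoprecipitation and sequencing (ChIP-seq), with input chromatin, in 36 samples.

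Both groups were male mice, 8 weeks old per the labels, whose dorsal hippocampus had been injected with the adeno-associated virus AAV2/9 carrying U6.shACSS2.CMV.EGFP. The vector expresses a short hairpin RNA against Acss2 from the U6 promoter and green fluorescent protein from the CMV promoter, so neither promoter restricts expression to 1 cell type. The EtOH group (3 samples) received ethanol intraperitoneally at 2 g/kg as a 20% solution in saline. The untreated group (3 samples) received no ethanol, and the labels name no saline injection for it. About 20 mg of tissue per mouse entered the assay, and the labels of all 3 samples of a group name the same peak list. No value per mouse exists in these lists, so no replicate error or test can be attached to any difference below, and 95% Wilson intervals cover counting error only. The read depth of the lists is unknown, and a deeper library gives more and wider peaks, so the effect of depth and of ethanol on the total number of peaks cannot be told apart.

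Acetylation of H3 lysine 9 neutralises a positive charge on the histone tail and marks the nucleosomes around the start sites of transcribed genes. The acetyl group comes from acetyl-CoA. ACSS2 makes acetyl-CoA from acetate, the product of ethanol oxidation, and in neurons part of it resides in the nucleus, so the comparison asks what ethanol does to the mark when this route is reduced.

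The tissue label was checked against marker genes through peaks within 1 kb of either end of the gene, called end peaks here. Of 26 hippocampal excitatory neuron genes, 24 had an end peak in the EtOH list and 24 in the untreated list, among them Prox1 of dentate granule cells and Slc17a7, the vesicular glutamate transporter. Of 25 genes of liver, muscle, lung and other tissues, 5 had one in the EtOH list and 7 in the untreated list. Of 20 genes of ependyma, choroid plexus and neighbouring brain regions, 11 had one in the EtOH list and 10 in the untreated list. These included Drd1 of the striatum and Cux2 and Rorb of the cortex. Among all 21887 protein-coding genes, 12859 had one in the EtOH list and 12590 in the untreated list. Excitatory neuron genes lay above the share of all genes, genes of other tissues below it, and neighbouring-region genes slightly below it. The markers thus show brain tissue and do not separate hippocampus from its neighbours. A hairpin RNA degrades messenger RNA, and the lists therefore do not check the knockdown. Acss2 itself had an end peak in both lists, with 1156 bases covered by peaks within 2 kb of its ends in the EtOH list and 996 in the untreated list. In whole tissue, more acetylated cells of 1 type and more acetylation per cell cannot be told apart.

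The EtOH list held 42120 peaks over 24.1 Mb, against 38484 peaks over 21.7 Mb in the untreated list, a difference in covered bases of 10.8%. Both lists covered 17.6 Mb in common. Of the EtOH peaks, 31.6% (31.1 to 32.0%) were gained, and of the untreated peaks, 21.3% (20.9 to 21.7%) were lost. Gained and lost peaks were alike in size, with a median width of 188 bp in each class, against 576 bp for EtOH peaks and 496 bp for untreated peaks that were present in both lists.

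The score of a peak, read as the −log10 of its q-value, separated the classes as well. Its median was 5.17 in gained peaks and 4.70 in lost peaks, against 14.7 in shared EtOH peaks and 11.4 in shared untreated peaks. In the lowest score quintile of each list, 70.9% of EtOH peaks were gained and 54.8% of untreated peaks were lost. In the highest quintile, 3 of 8441 EtOH peaks were gained and 4 of 7701 untreated peaks were lost. Strong peaks were thus almost all present in both lists, and no peak in the top score decile of either list was gained (at most 0.0289% of gained peaks, upper bound of the Wilson interval) or lost (at most 0.0468%).

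Peaks at gene ends were mostly held in common, and peaks inside genes and between them changed more. Genes are protein-coding genes alone in these shares. Of EtOH peaks with a midpoint within 1 kb of a gene end, 12.4% were gained, against 46.3% of those inside genes and 43.2% of those outside genes. Of untreated peaks, 7.48% at gene ends, 34.0% inside genes and 29.6% outside genes were lost. Gained peaks lay inside genes in 63.1% of cases and lost peaks in 65.3%, against 33.7% of shared EtOH peaks. Many lay beside a shared peak, since 39.4% of gained peaks and 38.8% of lost peaks were within 1 kb of a shared peak of their own list. At the edge of the rule, 694 gained and 600 lost peaks had a peak of the other list within 50 bp, and 756 EtOH and 684 untreated peaks counted as shared through an overlap of 50 bp or less.

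**Figure D1:**
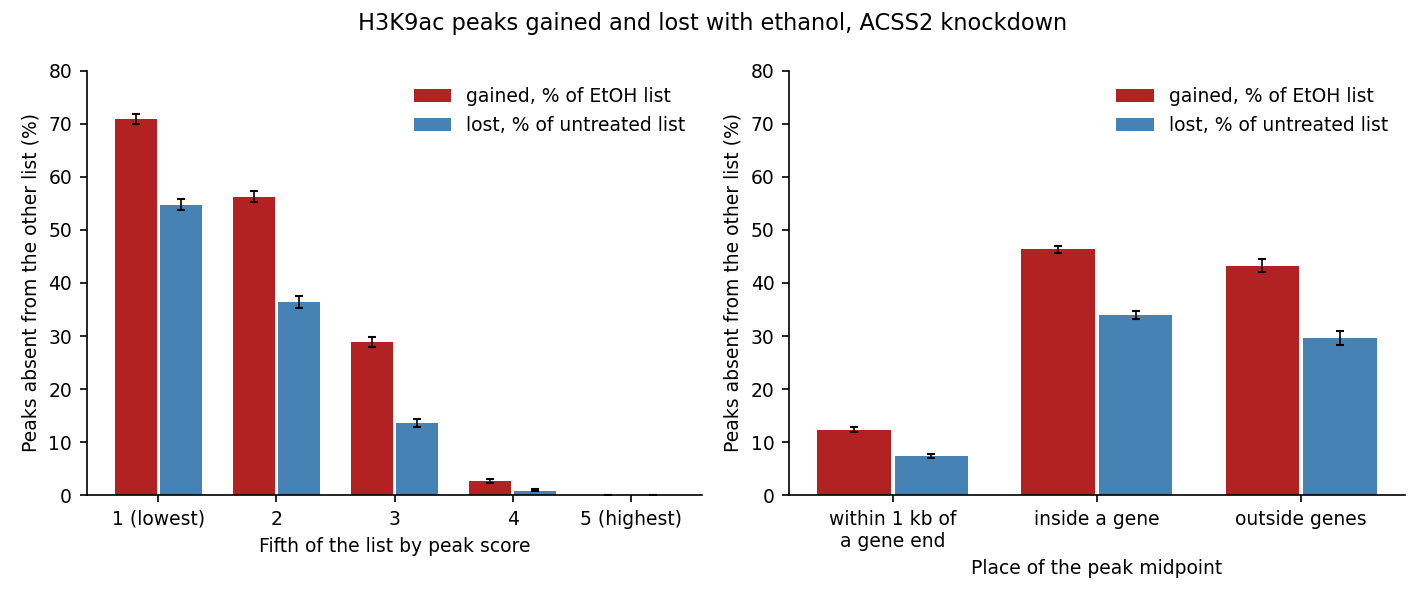
Percent of peaks absent from the other list, as gained peaks of the EtOH list (red) and lost peaks of the untreated list (blue), by quintile of peak score (left) and by place of the peak midpoint (right). Bars are shares and lines are 95% Wilson intervals for counting error. Shares were lower at higher scores in both lists and were lowest at gene ends, 12.4% gained and 7.48% lost.

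Regions held by both lists were also slightly wider in the EtOH list. Overlapping peaks merged into 25741 regions with peaks of both lists, of which 14959 (58.1%) had more covered bases in the EtOH list and 10695 (41.5%) in the untreated list. The median region covered 663 bases in the EtOH list and 616 in the untreated list, and the median difference per region was 29 bp. At least 1.5 times more bases were found in the EtOH list at 3334 regions and in the untreated list at 1842. The edges of shared peaks held 3.54 of the 6.46 Mb covered in the EtOH list alone, and 2.35 of the 4.10 Mb covered in the untreated list alone, so gained and lost peaks carried the smaller part of the change in both.

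H3K27ac, a mark of active promoters and enhancers, was profiled in the same 2 conditions and does not enter the definition of gained and lost. In the EtOH knockdown list of H3K27ac, 73.5% (72.7 to 74.2%) of gained, 62.1% (61.1 to 63.2%) of lost and 95.6% of shared EtOH peaks had an overlap. In the untreated knockdown list of H3K27ac the shares were 63.5% of gained, 56.9% of lost and 93.9% of shared EtOH peaks. Most gained and lost H3K9ac peaks thus stood on chromatin with H3K27ac, and more of the gained ones did so. Overlap with H3K27ac of the EtOH condition alone was found for 15.3% of gained and 12.9% of lost peaks, and with the untreated condition alone for 5.35% of gained and 7.69% of lost peaks. The H3K27ac lists themselves held 119317 peaks with EtOH and 101690 untreated.

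In mice injected with the control vector, H3K9ac was profiled with and without ethanol too. The EtOH control-vector list held 12.4% of gained, 11.1% of lost and 76.8% of shared EtOH peaks. The untreated control-vector list held 29.8% of gained, 26.0% of lost and 88.9% of shared EtOH peaks. Of gained peaks, 65.5% were in neither control-vector list, and of lost peaks, 69.3%.

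**Figure D2:**
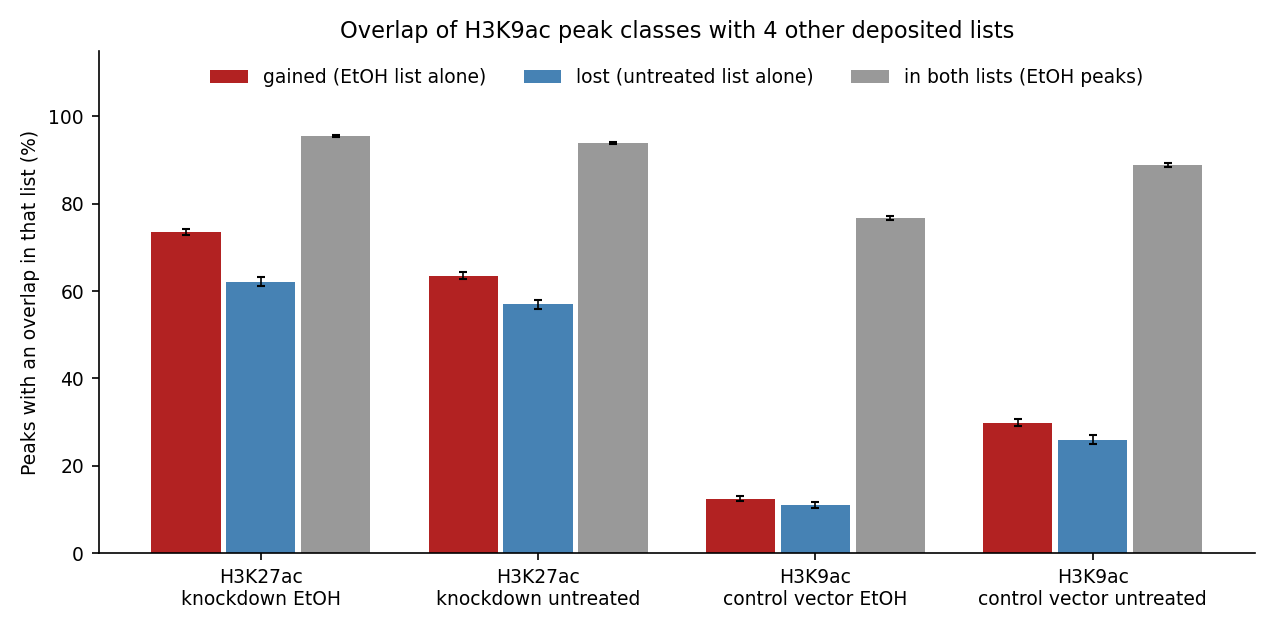
Percent of gained, lost and shared H3K9ac peaks of the knockdown with an overlapping base in each of 4 other lists, with 95% Wilson intervals for counting error. Gained peaks exceeded lost peaks in each list, from 73.5% against 62.1% in H3K27ac of the EtOH knockdown to 12.4% against 11.1% in H3K9ac of the EtOH control vector.

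Among 21887 protein-coding genes, 12859 had an end peak in the EtOH list and 12590 in the untreated list. An end peak was gained at 520 genes (2.38% of all genes) and lost at 251 (1.15%). Through a gained peak itself rather than a shared peak that reached further, 477 genes gained one, and 51 of these peaks were in the range above their list's median score. Through a lost peak itself, 241 genes lost one, and 17 of these were above their list's median score. Of those 477 genes, 358 had H3K27ac at an end in both knockdown lists, 62 in the EtOH list alone and 16 in the untreated list alone. Of those 241 genes, 182 had it in both, 22 in the EtOH list alone and 11 in the untreated list alone. Most genes whose H3K9ac end peak was gained or lost thus had H3K27ac in both conditions. H3K27ac end peaks were common over all 21887 genes too, at 14030 in the EtOH knockdown list and 13703 in the untreated knockdown list.

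The 8 genes with the highest-scoring gained end peak included Tshz2, a zinc finger transcription factor, whose ends were covered over 886 bases in the EtOH list and 0 in the untreated list, with a gained peak at chr2:169633365-169633943. Adh7, which encodes a class of alcohol dehydrogenase that also oxidises retinol, had 568 bases in the EtOH list and 0 in the untreated list, in a peak at chr3:138198129-138198696. Its H3K27ac covered 165 bases in the EtOH list and 0 in the untreated list. Barx2, a homeobox gene, had 423 bases in the EtOH list and 0 in the untreated list. Cd37, a tetraspanin of white blood cells, had 817 with EtOH and 145 untreated, and Fam167a 457 with EtOH and 0 untreated. Ankrd29, Gm28455 and 2610042L04Rik completed the group. Each of these 8 genes had an H3K9ac end peak in the untreated control-vector list, as had 237 of the 477 genes with a gained end peak. All but Adh7 and Barx2 had an H3K27ac end peak in both knockdown lists. The scores of these 8 gained peaks lay between the percentiles 61.4 and 70.1 of their list, so even the strongest were of middle rank.

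The 8 genes with the highest-scoring lost end peak were Acvrl1, Ect2, Nrn1l, Wdr66, Derl3, Zfp688, Mc5r and Itih5. Acvrl1, a receptor for BMP ligands on endothelial cells, had 0 covered bases in the EtOH list and 409 in the untreated list. Ect2, a RhoA exchange factor of cytokinesis, had 0 in the EtOH list and 720 in the untreated list. Derl3, a component of endoplasmic reticulum protein degradation, had 0 with EtOH and 216 untreated, in a lost peak at chr10:75893364-75893579. Wdr66 had 0 in the EtOH list and 275 in the untreated list. Acvrl1 and Ect2 were marked in both control-vector lists, and the lost peak at Mc5r, a melanocortin receptor gene, covered 311 bases that neither control-vector list held.

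Some genes moved in both marks. The 6 highest-scoring genes that gained H3K9ac and H3K27ac end peaks together were Adh7, Barx2, Npr3, Lamtor3-ps, Nmur1 and Rxrg. Each of the 6 had an H3K9ac end peak in the untreated control-vector list, with 411 bases within 2 kb at Npr3 and 414 at Rxrg. Lamtor3-ps had both marks within 2 kb in the untreated knockdown too, with 377 H3K9ac bases (781 with EtOH) and 699 H3K27ac bases (1029 with EtOH). Npr3, the clearance receptor for natriuretic peptides, had 416 H3K9ac bases with EtOH and 23 untreated, and 771 H3K27ac bases with EtOH and 0 untreated. Rxrg, a retinoid X receptor, had 328 H3K9ac bases with EtOH and 0 untreated, and 248 H3K27ac bases with EtOH and 0 untreated. Shcbp1, Dnd1, Scgb1a1, Mapk15, Tmem9 and Rnf181 lost the end peaks of both marks, within 1 kb. Within 2 kb, Scgb1a1 kept 182 H3K9ac bases (255 untreated) and 278 H3K27ac bases (341 untreated) with EtOH. Rnf181 kept 293 H3K9ac bases (734 untreated) and 317 H3K27ac bases (463 untreated). Mapk15, an atypical MAP kinase, had 0 H3K9ac bases with EtOH and 387 untreated, and 0 H3K27ac bases with EtOH and 160 untreated.

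Covered bases within 2 kb of the gene ends gave a graded measure. Of 13668 genes covered in either list, 8529 (62.4%) had more bases in the EtOH list and 5117 (37.4%) had fewer, with a median difference of 80 bp and means of 1428 bp in the EtOH list and 1338 bp in the untreated list. The widest increases were at Fmnl1, a formin that nucleates actin, with 3484 bases in the EtOH list and 1805 in the untreated list, and at Pcdh1, a protocadherin, at 5269 with EtOH and 3602 untreated. Smad6, an inhibitor of BMP signalling, had 2402 bases in the EtOH list and 757 in the untreated list. Foxq1, a forkhead factor of endothelial cells, had 1855 with EtOH and 246 untreated, and Thbs3 had 4941 with EtOH and 3317 untreated. Each of these genes had peaks in both lists that were broader or more numerous in the EtOH list. The widest decreases were at Sox8, a SoxE factor, with 4420 bases in the EtOH list and 5628 in the untreated list, at the growth factor kinase gene Rps6ka3 at 1041 with EtOH and 2194 untreated, and at Tdp2, a DNA repair phosphodiesterase, at 1474 with EtOH and 2580 untreated. Rnf26 had 656 with EtOH and 1754 untreated, and Fgfr4, a fibroblast growth factor receptor, 0 with EtOH and 1073 untreated.

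Presynaptic release genes encode the machinery that docks and fuses synaptic vesicles. Of 31 covered members, 28 had more bases in the EtOH list and 3 had fewer, with a median difference of 294 bp and means of 1789 bp in the EtOH list and 1463 bp in the untreated list. The share with more bases was 90.3%, beside 62.4% of all covered genes. Sv2b, a synaptic vesicle glycoprotein, had 1076 with EtOH and 199 untreated. Syp, synaptophysin, had 1503 with EtOH and 754 untreated, and Snap25, a SNARE protein of vesicle fusion, had 2503 with EtOH and 1808 untreated. Members with fewer bases included Cplx2, a regulator of SNARE complexes (2085 with EtOH and 2265 untreated), and Vamp1, a vesicle SNARE protein (1017 with EtOH and 1055 untreated). All 31 members that were covered had an end peak in both lists, so the increase was in width and number of peaks.

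Hippocampal excitatory neuron genes were alike in direction, with 18 of 24 covered members higher in the EtOH list, 6 lower and a median difference of 291 bp. The share with more bases was 75% here and 75.9% in the glutamate receptor list below, beside 62.4% of all covered genes. Neurod6, a proneural helix-loop-helix factor of pyramidal cells, had 1542 bases in the EtOH list and 642 in the untreated list. In H3K27ac of the knockdown, 18 of 25 covered members had more bases with EtOH and 7 had fewer. Neurod6 was among those with fewer (617 with EtOH, 1087 untreated). Camk2a, the calcium/calmodulin kinase of the postsynaptic density, had 2177 with EtOH and 1299 untreated, and Tbr1, a T-box factor of glutamatergic neurons, 2387 with EtOH and 1688 untreated. Dkk3 (999 with EtOH and 1740 untreated) and Nrgn, neurogranin (2131 with EtOH and 2674 untreated), had fewer bases with EtOH. Glutamate receptor and postsynaptic density genes numbered 22 more and 7 fewer among 29 covered, with Grm2, a presynaptic metabotropic receptor, at 2820 in the EtOH list and 1951 in the untreated list. Shank2, a postsynaptic scaffold, lost its end peak (0 with EtOH, 205 bases untreated), and Gria3, an AMPA receptor subunit, had 864 with EtOH and 1406 untreated.

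Of the inhibitory neuron marker genes, 9 of 23 were covered, 3 with more bases and 6 with fewer, with a median difference of -39 bp, although the mean was higher in the EtOH list (864 bp, against 843 bp untreated). Over the whole gene and 2 kb around it, 60% of covered members had more bases in the EtOH list. Gad1, which makes GABA, had 1330 bases with EtOH and 976 untreated, and Ndnf 1287 with EtOH and 1017 untreated. Pvalb (1 with EtOH and 216 untreated) and Lamp5 (0 with EtOH and 146 untreated), a marker of a neurogliaform class, had fewer. Pvalb had no end peak in either list. GABA receptor and transport genes numbered 13 more and 5 fewer of 18 covered, with Abat, the enzyme that degrades GABA, at 1488 in the EtOH list and 780 in the untreated list. Gabra4 and Gabrb1 share 1 covered region and each had 1280 bases with EtOH and 1562 untreated. Voltage-gated ion channel genes numbered 19 more and 7 fewer of 26. Shares with more bases were 72.2% in the GABA receptor list and 73.1% in the ion channel list, beside 62.4% of all covered genes.

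Oligodendrocyte lineage genes held the most gained end peaks of the lists. Of 25, 17 had an end peak in the EtOH list and 12 in the untreated list, with 5 gained and 0 lost, against 2.38% gained and 1.15% lost among all genes. The 5 were Sox10, the lineage's transcription factor, with 1342 covered bases with EtOH and 451 untreated, Ptgds, prostaglandin D synthase (944 with EtOH and 0 untreated), Mag, a myelin adhesion protein (428 with EtOH and 0 untreated), Mog, a myelin surface protein (235 with EtOH and 0 untreated) and Ermn, a myelinating cell cytoskeletal protein (415 with EtOH and 259 untreated). Of 18 covered members, 14 had more bases (77.8%, beside 62.4% of all covered genes). The other 4 had fewer, including Mobp, a myelin-associated protein (182 with EtOH, 782 untreated). In the control-vector lists Mag had 642 bases with EtOH and 719 untreated, and Sox10 had 1002 with EtOH and 1778 untreated. Sox10, Mag, Mog and Ptgds had an H3K9ac end peak in both control-vector lists, and Ermn had one in neither. In H3K27ac of the knockdown, 14 of 23 covered members had more bases with EtOH and 9 fewer. Over all genes, 10280 of 14816 had more and 4519 fewer. Of the 5 genes, Ptgds had more H3K27ac with EtOH (3043, 2428 untreated). Fewer H3K27ac bases were covered with EtOH at Sox10 (2085, 2336 untreated), Mag (1875, 2112 untreated), Mog (708, 771 untreated) and Ermn (230, 396 untreated).

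Other non-neuronal lists held fewer covered genes. All 6 covered microglia and macrophage genes of 23 had more bases in the EtOH list, among them Spi1, the myeloid transcription factor PU.1, which gained its end peak (289 with EtOH, 0 untreated), Sall1 (1794 with EtOH and 1199 untreated) and Irf8 (858 with EtOH and 406 untreated). Within 5 kb of the gene ends 75% of covered members had more bases, and in H3K27ac of the knockdown 5 had more and 5 fewer, with a median difference of -3.5 bp. Csf1r, Cx3cr1 and P2ry12 were not among the covered genes. Astrocyte genes numbered 14 more and 4 fewer of 18, with Aldoc, a glycolytic aldolase, at 1725 with EtOH and 977 untreated, Gjb6, a gap junction protein, at 959 with EtOH and 325 untreated, and Gfap, an intermediate filament, at 421 with EtOH and 703 untreated. Endothelial and mural genes numbered 6 more and 4 fewer of 10. Shares with more bases were 77.8% in astrocyte genes and 60% in endothelial and mural genes, beside 62.4% of all covered genes. Pdgfrb, a receptor of pericytes (629 with EtOH, 0 untreated), and Kcnj8, a pericyte potassium channel (191 with EtOH and 0 untreated), gained end peaks, and Eng, endoglin (0 with EtOH and 145 untreated), and Acvrl1 lost theirs. The part of changed cell numbers in these list values was not tested.

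**Figure D3:**
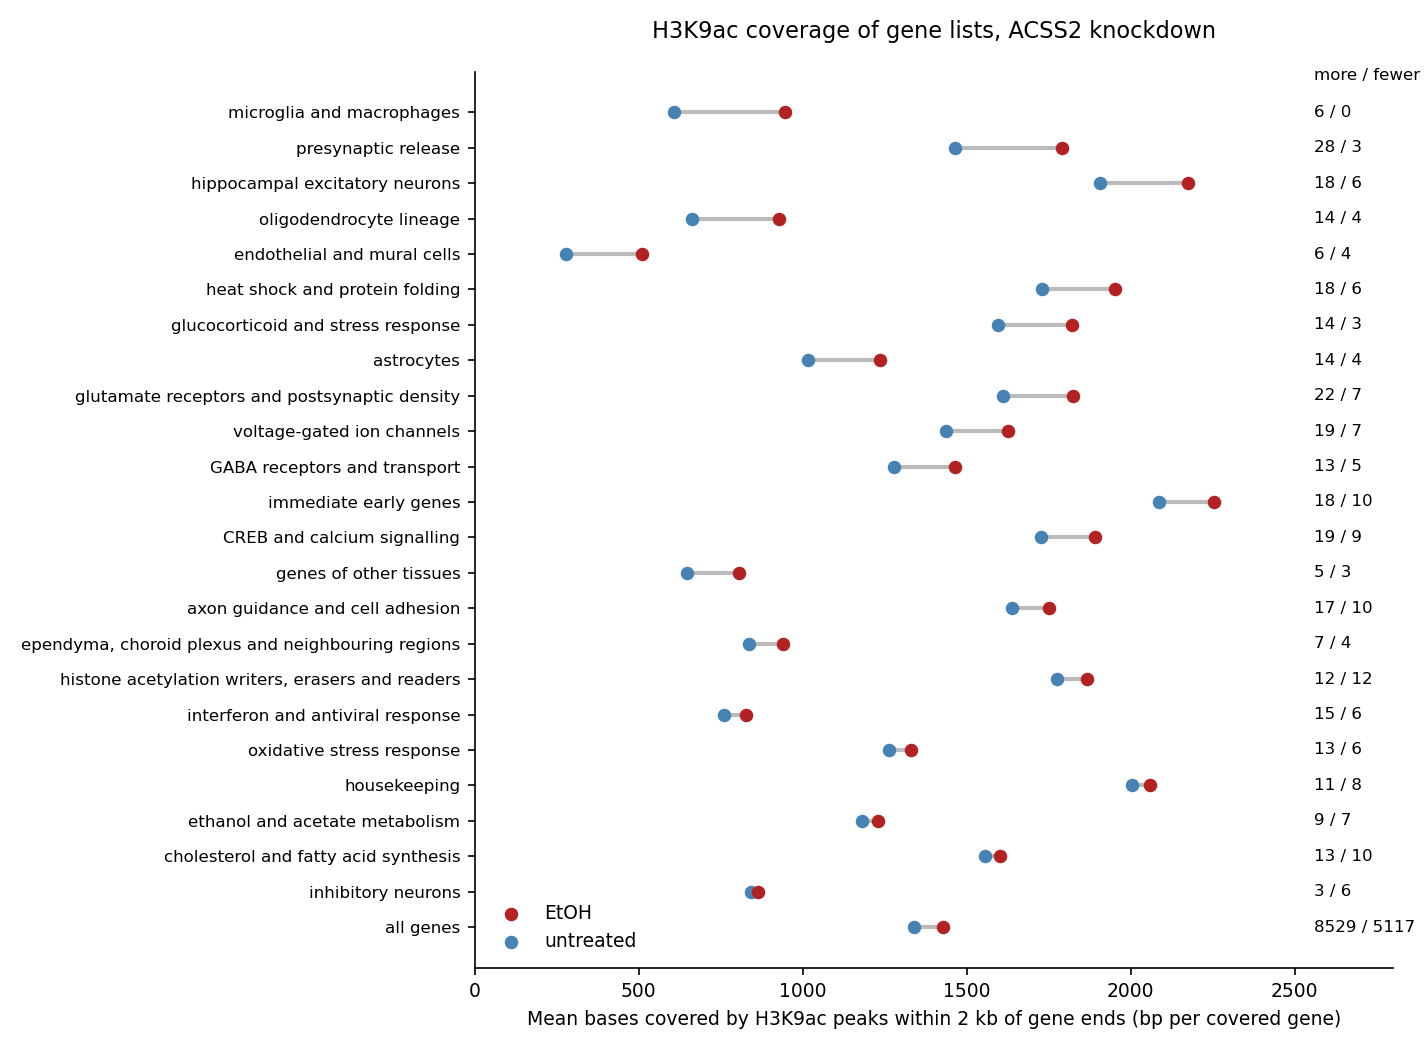
Mean bases covered by H3K9ac peaks within 2 kb of gene ends, per covered gene, for 23 gene lists and for all genes, in the EtOH list (red) and the untreated list (blue). Numbers at the right are members with more and with fewer bases in the EtOH list, 28 and 3 for presynaptic release and 8529 and 5117 for all genes.

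Immediate early genes, which respond to neuronal activity within minutes, numbered 18 more and 10 fewer of 28, a share of 64.3% beside 62.4% of all genes. Klf4 had 2107 bases in the EtOH list and 1147 in the untreated list, Dusp6, a MAP kinase phosphatase, 4795 with EtOH and 3842 untreated, and Egr1 2869 with EtOH and 2285 untreated. Npas4, an activity-dependent factor, had 0 with EtOH and 400 untreated, and Gadd45b had 2119 with EtOH and 2548 untreated. Fos (2143 with EtOH and 2040 untreated) and Arc (2808 with EtOH and 2870 untreated) moved little. Among heat shock genes, 18 had more and 6 fewer of 24, led by Hspa2 (2777 with EtOH, 1923 untreated) and Hsp90b1, a chaperone of the endoplasmic reticulum (2976 with EtOH and 2189 untreated). Hspb8 gained its end peak (236 with EtOH and 0 untreated). Hspa1a (1122 with EtOH and 518 untreated) and Hspa1b (1710 with EtOH and 1288 untreated) are near-identical copies, so their reads may be split between them. Glucocorticoid and stress genes numbered 14 more and 3 fewer of 17, and Crh, corticotropin-releasing hormone, gained an end peak (384 with EtOH, 0 untreated).

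Genes of acetyl-group supply and transfer moved both ways. Among ethanol and acetate metabolism genes, 9 of 16 covered had more bases and 7 had fewer, and within 5 kb of the gene ends 43.8% had more. Adh7 gained an end peak and Acss3, a mitochondrial acyl-CoA synthetase, lost one (0 with EtOH, 374 untreated). Aldh2, the mitochondrial aldehyde dehydrogenase that removes acetaldehyde, had 1677 with EtOH and 1958 untreated, and Acly, which makes acetyl-CoA from citrate, 1897 with EtOH and 1693 untreated. Among writers, erasers and readers of histone acetylation, 12 had more bases and 12 fewer, and over the whole gene and 2 kb around it 64.3% had more. Kat2a, a writer of H3K9ac (2042 with EtOH, 1316 untreated), and Crebbp, a histone acetyltransferase (2327 with EtOH and 1729 untreated), had more, and Kat5 (2073 with EtOH and 2597 untreated) and Hdac8 (682 with EtOH and 1152 untreated) had fewer. Housekeeping genes numbered 11 more and 8 fewer of 19, cholesterol and fatty acid synthesis 13 more and 10 fewer of 23, interferon response 15 more and 6 fewer of 21, and oxidative stress 13 more and 6 fewer of 19. The counts of CREB and calcium signalling were 19 more and 9 fewer of 28, and of axon guidance and adhesion 17 more and 10 fewer of 27. Ependymal, choroid plexus and neighbouring region genes numbered 7 more and 4 fewer of 11, and genes of other tissues 5 more and 3 fewer of 8. The share of covered members with more bases ran from 33.3% in inhibitory neuron genes to 100% in the 6 microglia genes, beside 62.4% of all genes.

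**Figure D4:**
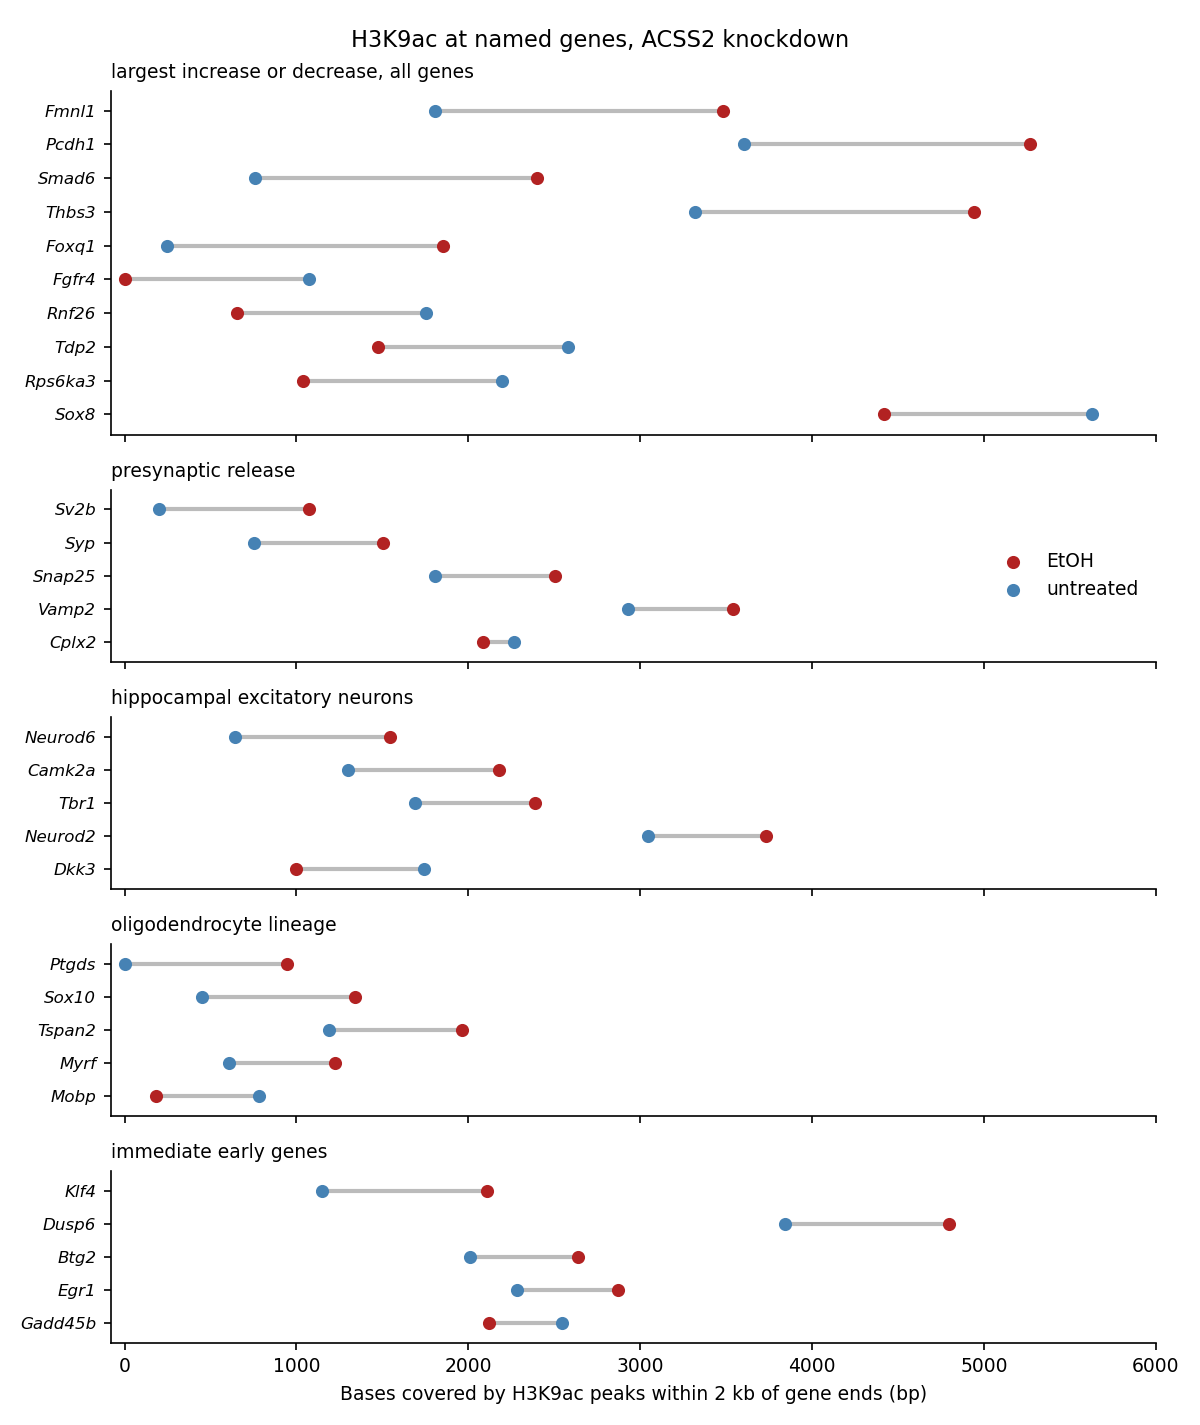
Bases covered by H3K9ac peaks within 2 kb of the gene ends in the EtOH list (red) and the untreated list (blue) for named genes, joined by a line per gene. Sv2b had 1076 bases with EtOH and 199 untreated, and Sox8 had 4420 with EtOH and 5628 untreated.

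Inside genes, more peaks were gained than lost. Of 21887 genes, 3300 (15.1%) had more gained than lost peaks in the body and 1823 (8.33%) had more lost than gained, and 123 had a net gain of at least 5 peaks, against 5 with a net loss of at least 5. Genes in the first of these extremes had a median length of 118 kb, and a long gene offers more room for peaks. The median was 39.7 kb for genes with more gained than lost peaks, 31.3 kb for the reverse and 17.2 kb for all genes. Arid1b, a subunit of the BAF chromatin remodelling complex, had 22 gained and 8 lost peaks in its body, and Mical2, an actin-oxidising enzyme, had 14 gained and 1 lost. Zbtb16, a zinc finger repressor, had 23 gained and 11 lost, Rbfox3, the neuronal splicing factor NeuN, 19 gained and 7 lost, Ppp2r2c 16 gained and 4 lost, Trak1, an adaptor for mitochondrial transport, 18 gained and 7 lost and Prkag2, a subunit of AMP-activated kinase, 13 gained and 2 lost. Gse1 had 43 gained and 30 lost. Arid1b covered 9950 body bases with EtOH and 5730 untreated, and in the control vector 4488 with EtOH and 8725 untreated. At the other end, Rapgef2, a Rap exchange factor, had 1 gained and 8 lost peaks, and Snd1 had 4 gained and 9 lost. Cntfr, the receptor for ciliary neurotrophic factor, Rnf41 and Retreg3 each had 0 gained and 5 lost. Pwwp3a, Mtss1 and Dnajc3 followed.

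**Figure D5:**
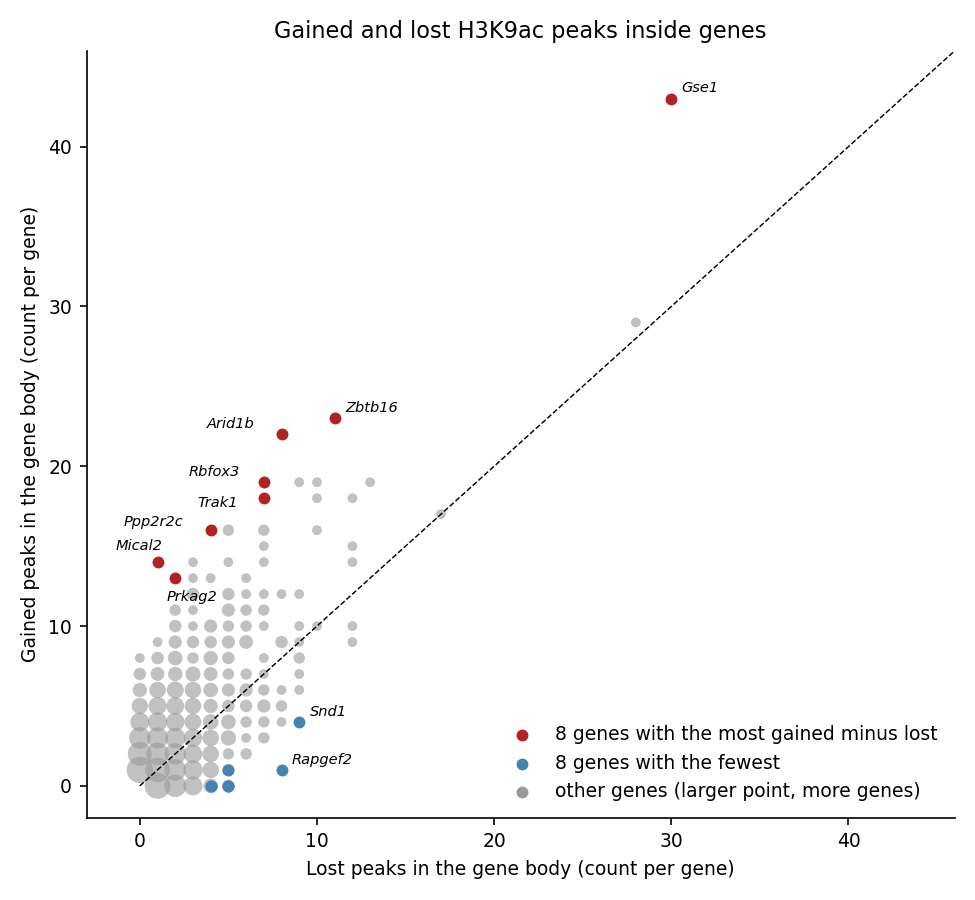
Gained (vertical) and lost (horizontal) H3K9ac peaks inside each protein-coding gene, as counts, with the 8 genes of most and of fewest gained minus lost peaks in red and blue. The dashed line marks equal counts, with 3300 genes above it and 1823 below, and Arid1b lies at 22 gained and 8 lost.

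Away from gene ends, the highest-scoring gained peaks were at chr14:52862559-52862767, outside protein-coding genes, and chr2:58108028-58108214, 20924 bp from Cytip. The first of these overlapped both control-vector H3K9ac lists and both H3K27ac knockdown lists. The gained peak at chr4:83842814-83843033 inside Ccdc171 overlapped H3K27ac of the EtOH knockdown list alone and neither control-vector list. The highest-scoring lost peaks were at chr7:144499586-144499874 inside Ppfia1, a liprin that organises synapses, and chr11:44462481-44462908 inside Ublcp1, and the first of these overlapped none of the 4 other lists.

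Promoter sequences of 300 bases (250 before to 50 after the annotated start) were taken from RefSeq, build GRCm38.p6, for 21238 start sites of 17469 genes. Of these windows, 997 (4.69%) were touched by a peak of the EtOH list alone and 529 (2.49%) by a peak of the untreated list alone. Both classes were poorer in CpG dinucleotides than promoters marked in both lists, with a median of 17 in the EtOH class and 17 in the untreated class, against 23 in both lists and 3 in neither. Median GC content was 60.3% in the EtOH class and 59.0% in the untreated class, against 62.7% in both lists and 48.3% in neither. The GC box GGGCGG was in 66.6% of the EtOH class and 60.3% of the untreated class, against 69.1% of promoters in both lists, 18.1% of those in neither and 46.2% of all. The E-box CAGNTG, read like each motif on both strands, was in 49.8% of the EtOH class and 46.3% of the untreated class, against 41.3% in both lists, 56.6% in neither and 48.6% of all. The CRE TGACGTCA was in 2.01% of the EtOH class and 2.84% of the untreated class, against 3.49% in both lists and 2.24% of all, and the AP-1 motif TGANTCA in 6.12% of the EtOH class and 4.54% of the untreated class, against 3.82% in both lists and 6.99% of all. CCGGAAGT, an ETS motif, was in 5.02% of the EtOH class and 3.78% of the untreated class, against 9.01% in both lists and 5.15% of all. A MEF2 motif was in 2.91% of the EtOH class and 3.40% of the untreated class, against 2.67% in both lists and 3.47% of all. For each of these 6 motifs, both classes thus lay between the promoters in both lists and those in neither.

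A promoter window lay wholly inside peaks of the EtOH list with no base in untreated peaks at 85 start sites, and the reverse held at 21. Of these, 6 members of the gene lists are shown, since they are the start sites where the mark changed across the whole window. CpG dinucleotides are in capitals, and the following windows were covered in the EtOH list alone.

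Tbr1, chr2:61804203-61804502, plus strand: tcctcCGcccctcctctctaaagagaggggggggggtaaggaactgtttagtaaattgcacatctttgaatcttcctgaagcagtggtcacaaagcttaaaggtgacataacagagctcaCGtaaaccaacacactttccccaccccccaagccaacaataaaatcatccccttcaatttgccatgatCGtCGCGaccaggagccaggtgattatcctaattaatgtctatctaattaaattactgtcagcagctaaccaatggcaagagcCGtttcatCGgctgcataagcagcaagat

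Slc17a7, chr7:45163671-45163970, plus strand: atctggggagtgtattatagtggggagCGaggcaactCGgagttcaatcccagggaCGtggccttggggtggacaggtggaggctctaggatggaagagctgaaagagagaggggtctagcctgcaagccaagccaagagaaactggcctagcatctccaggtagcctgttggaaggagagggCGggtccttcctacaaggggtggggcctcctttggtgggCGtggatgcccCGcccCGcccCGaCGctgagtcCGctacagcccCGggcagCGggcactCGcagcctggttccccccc

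Ryr2, chr13:12106896-12107195, minus strand: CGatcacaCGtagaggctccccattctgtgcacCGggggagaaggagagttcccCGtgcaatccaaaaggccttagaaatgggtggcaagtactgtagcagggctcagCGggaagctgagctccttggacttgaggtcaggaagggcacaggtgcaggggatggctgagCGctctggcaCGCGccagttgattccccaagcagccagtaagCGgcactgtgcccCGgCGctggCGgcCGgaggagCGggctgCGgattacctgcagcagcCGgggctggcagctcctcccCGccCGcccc

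Crebbp, chr16:4213355-4213654, minus strand: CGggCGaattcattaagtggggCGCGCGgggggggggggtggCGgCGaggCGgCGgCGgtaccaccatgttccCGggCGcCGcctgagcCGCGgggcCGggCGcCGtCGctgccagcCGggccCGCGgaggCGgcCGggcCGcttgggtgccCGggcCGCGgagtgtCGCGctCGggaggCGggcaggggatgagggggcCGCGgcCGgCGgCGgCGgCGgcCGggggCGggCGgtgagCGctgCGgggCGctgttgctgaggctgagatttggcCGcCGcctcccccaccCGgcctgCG

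The Tbr1 window held 7 CpG and 46% GC, and the Crebbp window 49 CpG and 82% GC, so these windows differed widely in CpG content. At Tbr1, H3K27ac covered 208 of the 300 bases with EtOH and 31 untreated, and neither control-vector H3K9ac list touched the window. The Tbr1 locus also held a lost peak, at chr2:61802808-61803150, which spans the outermost annotated start of the gene upstream of this window, so its promoter region changed in both directions. Ryr2, the calcium release channel of the endoplasmic reticulum, had 1997 covered bases near its ends with EtOH and 1383 untreated, and Slc17a7 had 2623 with EtOH and 2205 untreated. H3K27ac covered all 300 bases of the Ryr2 and Slc17a7 windows in both conditions, and at Crebbp 300 with EtOH and 211 untreated. Control-vector H3K9ac covered 0 bases with EtOH and 16 untreated at Ryr2, 20 and 0 at Slc17a7, and 58 and 0 at Crebbp. Elovl6, a fatty acid elongase, and Hspa1a, a chaperone, also had windows covered in the EtOH list alone. Untreated peaks alone covered the windows of Fos, Cldn11, a tight junction protein of myelin, and Kcnc2.

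Fos, chr12:85473640-85473939, plus strand: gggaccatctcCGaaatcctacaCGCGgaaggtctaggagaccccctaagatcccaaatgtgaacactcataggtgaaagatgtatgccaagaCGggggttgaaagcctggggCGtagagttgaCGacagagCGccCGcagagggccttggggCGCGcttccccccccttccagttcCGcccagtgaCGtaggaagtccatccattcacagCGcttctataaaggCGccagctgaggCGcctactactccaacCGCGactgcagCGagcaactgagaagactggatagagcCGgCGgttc

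Cldn11, chr3:31149670-31149969, plus strand: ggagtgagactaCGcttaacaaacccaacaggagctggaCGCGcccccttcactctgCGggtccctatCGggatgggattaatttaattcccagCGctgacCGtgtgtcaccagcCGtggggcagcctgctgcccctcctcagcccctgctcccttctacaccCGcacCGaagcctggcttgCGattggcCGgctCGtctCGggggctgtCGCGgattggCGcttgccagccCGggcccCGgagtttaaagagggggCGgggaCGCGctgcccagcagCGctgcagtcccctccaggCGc

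The Fos window held 20 CpG and 58.7% GC, and the Cldn11 window 24 CpG and 66.3% GC. H3K27ac of the knockdown covered 213 bases of the Fos window with EtOH and 178 untreated, and 300 of the Cldn11 window in both conditions. Control-vector H3K9ac covered 292 bases with EtOH and 11 untreated at Fos, and 290 with EtOH and 214 untreated at Cldn11. Around both ends of Fos and Cldn11 the total was close in both lists (2143 bases with EtOH and 2040 untreated for Fos, 902 with EtOH and 871 untreated for Cldn11).

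MicroRNA genes were examined as well, a set chosen after the data had been seen. MicroRNAs pair with messenger RNA through the seed, bases 2 to 8, and RefSeq's table (GRCm38.p6) places 1005 hairpins on the assembled chromosomes. Peaks within 1 kb were present at 20 hairpins in the EtOH list alone (1.99%) and at 21 in the untreated list alone (2.09%), so the directions were balanced. Of 11 hairpins named Mirlet7, 1 had peaks in the EtOH list alone, 2 in the untreated list alone, 1 in both lists and 7 in neither. At Mirlet7e (chr17:17830352-17830444, inside Spaca6) 655 bases were covered with EtOH and 0 untreated, and at its neighbour Mir125a 288 with EtOH and 0 untreated. The windows of these neighbours overlap, so their covered bases are not separate. Such neighbours were counted singly among the 20 and 21 hairpins. At Mirlet7g (chr9:106178840-106178927, inside Wdr82) 0 bases were covered with EtOH and 400 untreated, and at Mirlet7c-2 0 with EtOH and 328 untreated. A peak inside a host gene cannot be assigned to the host or the hairpin. Mirlet7e, Mirlet7g and Mirlet7c-2 give mature RNAs that share the seed GAGGUAG, in capitals here.

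mmu-let-7e-5p: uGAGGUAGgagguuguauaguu

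mmu-let-7g-5p: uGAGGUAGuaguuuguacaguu

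mmu-let-7c-5p: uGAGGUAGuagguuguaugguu

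Mirlet7e and Mir125a also had covered bases in both control-vector lists (599 with EtOH and 530 untreated at Mirlet7e). Mirlet7g had none in either, and Mirlet7c-2 had 0 with EtOH and 287 untreated in the control vector, the same direction as in the knockdown.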

How the data were processed

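The deposited files are peak lists, 1 per mark and condition, each naming all 3 samples of its group. Peaks were kept at a false discovery rate of 0.001 against input, per the labels. Builds GRCm38 and mm10 and, with no roles stated, MACS2, bedtools, STAR 2.5.2a and bcl2fastq appear in the submitters' processing notes. Pooling of replicates and read numbers are not given in the sources used here. The score deposited by the authors was read from its values as the −log10 of a q-value, and served to rank and filter peaks within a list.

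Intervals were compared with numpy 2.4.6 and pandas 2.3.3, with overlap of at least 1 base, and the code was tested on simulated intervals. Wilson intervals came from scipy 1.17.1. Gene coordinates (21887 protein-coding genes, no strand) and promoters are RefSeq's for GRCm38.p6. An end peak lies within 1 kb of either gene end, and covered bases lie within 2 kb. Of 577 gene list entries, 2 had no match. Members, gene lists and the rules for named genes (highest score, largest change in covered bases or body peaks) were chosen with earlier results of these data known. One motif was added later and is not reported. Peaks off assembled chromosomes (147 with EtOH, 136 untreated) were left out. Peak sequences are not used here. Within gene lists, a few genes that the naming rule would give are not reported here, and the rankings over all genes leave none out.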

Additional observations from a re-analysis of the deposited data

Results flagged for a closer look

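Peak number and the median change over all genes moved in opposite directions with ethanol in the 2 vectors, in values from pooled lists whose difference was not tested. H3K9ac peak number was higher with ethanol by 9.45% in the knockdown and fell by 18.8% in the control vector. The median change in covered bases of presynaptic release genes was 294 bp in the knockdown and -600.5 bp in the control vector. For the oligodendrocyte lineage it was 248.5 bp in the knockdown and -234 bp in the control vector, and for microglia and macrophages 355.5 bp in the knockdown and -374 bp in the control vector. Over all genes the medians were 80 bp in the knockdown and -278 bp in the control vector. Of the 23 gene lists, inhibitory neurons had a negative median in both vectors, -39 bp in the knockdown and -338 bp in the control vector. In the control vector, 789 genes lost an end peak with ethanol and 133 gained one. Of the 520 genes that gained one in the knockdown, 155 lost theirs in the control vector and 29 gained one. Of the 251 genes that lost one in the knockdown, 76 lost theirs in the control vector and 11 gained one. The depth of the 4 lists is unknown, and its part was not tested.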

How the results depend on the processing

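Gained peaks outnumbered lost peaks under each of the 8 alternatives. Counts were 8096 gained and 4574 lost with peaks within 500 bp counted as shared, 6804 and 4487 with peaks stitched within 1 kb, 991 and 281 above the median score of the own list, and 4716 lost at a score of at least 5. The excess was 1693 with lists of equal length, 2317 stitched and 710 above the median score. Around annotated starts alone, 332 genes gained and 150 lost a peak. The mean was higher with EtOH for 23 of 23 gene lists, and for 22 with lists of equal length, where cholesterol and fatty acid synthesis turned to -1.74 bp. At a score of at least 5 the share at gene ends was 21.4% of gained and 21.1% of lost peaks, the share with H3K27ac of the same condition 81.0% and 65.7%, and the shares in the control-vector lists 43.7% and 39.7% (untreated) and 21.1% and 19.9% (EtOH). With peaks within 500 bp counted as shared, these were 9.98% and 9.99%, 53.9% for lost peaks with H3K27ac, 22.1% and 17.3%, and 8.34% and 6.76%. Causes were not tested.

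No paired analysis was possible because each list pools its replicates, and for the same reason leave-one-out was not run. Depth limits every count of peaks.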
